A study of Mus musculus with 8 samples.

Results

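The SOCS family comprises Cish and Socs1 to Socs7, 8 genes of the 21322 that could be named on the array. They were taken as every probe whose gene name in the scanner files was Cish or Socs1 to Socs7, which gave 14 of 41174 probes, each 60 bases long. Of these, 13 probes met the filter, which asked for signal above background on both arrays of a group, and all 8 genes were among the 13709 tested. The rule itself uses gene names and no measured value, although earlier results of these data were known when the family was chosen.

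SOCS proteins end a cytokine signal. A cytokine receptor activates Janus kinases, these activate STAT transcription factors, and the STATs switch on SOCS genes, whose products return to the receptor or the kinase and block it. Each protein carries an SH2 domain that binds phosphotyrosine and a SOCS box that recruits a cullin ubiquitin ligase, and Cish, Socs1, Socs2 and Socs3 are the members best known as targets of cytokine signals in blood cells.

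The cells were Ba/F3, a mouse pro-B line that depends on IL3, made to express wild type FLT3 or FLT3/ITD. An internal tandem duplication (ITD) in this tyrosine kinase receptor makes it signal without its ligand, with STAT5 among its known effectors. All cells had been grown with 0.1 ng/ml mouse IL3, were washed repeatedly and spent 4 h in RPMI with 0.5% BSA, either alone or with 100 ng/ml murine Cxcl12, the chemokine that binds Cxcr4. The 4 groups were wild type FLT3, FLT3/ITD, wild type FLT3 with Cxcl12 and FLT3/ITD with Cxcl12, with 2 arrays each. One slide (set 1) held an array of each group with the ITD named N51, and the other (set 2) an array of each group with the ITD named N78. The ITD type and the set can therefore not be told apart, and neither can the group and its place on the slide, which was the same on both. The labels do not say whether arrays of a group came from separate cultures, or whether a line is 1 clone, so p-values measure only the spread between these arrays, which may be technical.

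Between 49.2% and 55.0% of probes were above background per array, and the 75th percentile of intensity was 937.2 to 1108.8 in set 1 and 366.7 to 600.0 in set 2. Of 15 pro-B cell markers, 7 were above background on all 8 arrays, among them Cd79a, Cd79b and Vpreb1, and 6 were above it on none, among them Pax5, Ebf1 and Rag1. The single mouse Flt3 probe was above background on 4 of 8 arrays and was not tested. Its levels were -6.02 to -3.86 on wild type FLT3 arrays and -6.16 to -3.56 on FLT3/ITD arrays. Whether it can bind the RNA of the FLT3 put into the cells is not given in the labels, so it is no check of them.

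Because STATs bind TTCNNNGAA, the stretches before the gene starts of Cish, Socs1 and Socs3 are shown first. RefSeq promoter sequences of GRCm38.p6 were at hand for 4 of the 8 genes, namely Cish, Socs1, Socs3 and Socs4, and not for Socs2, Socs5, Socs6 and Socs7. The motif reads the same on both strands, and each occurrence is in capitals. Each stretch begins 250 bases before the gene start. The one of Cish, chr9:107296409-107296678 on the plus strand, runs 20 bases past the start, to the end of the second occurrence. Those of Socs1, chr16:10785537-10785786, and Socs3, chr11:117969367-117969616, both on the minus strand, end at the start.
Cish: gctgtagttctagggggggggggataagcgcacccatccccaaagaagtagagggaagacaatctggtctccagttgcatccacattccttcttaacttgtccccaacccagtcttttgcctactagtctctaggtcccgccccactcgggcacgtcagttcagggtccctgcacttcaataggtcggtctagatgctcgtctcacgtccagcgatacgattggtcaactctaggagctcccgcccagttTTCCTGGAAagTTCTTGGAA
Socs1: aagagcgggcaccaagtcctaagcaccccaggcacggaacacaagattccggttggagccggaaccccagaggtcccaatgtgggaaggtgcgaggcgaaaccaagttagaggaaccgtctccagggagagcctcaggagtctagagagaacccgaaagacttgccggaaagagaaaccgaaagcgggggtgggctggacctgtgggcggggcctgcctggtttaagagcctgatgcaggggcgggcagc
Socs3: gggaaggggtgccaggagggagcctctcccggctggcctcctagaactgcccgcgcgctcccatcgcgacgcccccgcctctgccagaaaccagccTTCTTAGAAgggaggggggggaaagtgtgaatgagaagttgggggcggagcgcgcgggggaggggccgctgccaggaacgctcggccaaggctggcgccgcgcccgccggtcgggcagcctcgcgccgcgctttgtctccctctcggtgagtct

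Cish held the motif 2 times within 20 bases, the starts being 11 bases apart, and the first occurrence began at the first base of the gene. Socs3 held it 1 time, 154 bases before the start. In the full windows of 300 bases, which reach 50 bases past the start, the motif was found in 2 of the 4 genes and not in Socs1 or Socs4. Of 32851 such windows, 8.30% held it at least 1 time and 0.457% at least 2 times. A match describes letters only, and its absence says nothing of STAT binding elsewhere.

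Levels are given as log2 intensity relative to the 75th percentile of the array, so that 0 is that percentile and 1 unit is a 2-fold difference. They compare arrays for the same gene, not 1 gene with another. Each gene is given by its brightest probe, which was above background and not saturated on all 8 arrays.

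Cish is an early target of STAT5 and binds activated cytokine receptors. Its probe lies at chr9:107204196-107204255 (mm9). On wild type FLT3 arrays it read 1.90 in set 1 and 1.55 in set 2, and with Cxcl12 0.93 and -0.41. FLT3/ITD arrays read 3.44 in set 1 and 1.37 in set 2, and with Cxcl12 4.00 and 1.10. Within a set FLT3/ITD read higher in 3 of 4 pairs of arrays, the exception being set 2 without Cxcl12. Wild type and FLT3/ITD arrays overlapped when both sets were pooled. Group means ran from 0.26 ± 0.95 (SD, n = 2) for wild type with Cxcl12, over 1.72 ± 0.24 for wild type and 2.40 ± 1.47 for FLT3/ITD, to 2.55 ± 2.06 for FLT3/ITD with Cxcl12. No neighbours in that order lay further apart than the larger of their SDs except the lowest pair. These SDs include the difference between the sets, which the fits below take as a block.

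Socs1 binds Janus kinases and blocks their catalytic activity. Its probe lies at chr16:10783951-10784010 (mm9). Wild type FLT3 arrays read -2.16 in set 1 and -2.03 in set 2, and with Cxcl12 -2.35 and -1.90. FLT3/ITD arrays read 0.21 and -1.40, and with Cxcl12 1.67 and -1.06. All 4 FLT3/ITD arrays lay above all 4 wild type arrays, and the N51 arrays of set 1 were the highest. Group means were -2.13 ± 0.32 (SD, n = 2) for wild type with Cxcl12, -2.10 ± 0.09 for wild type, -0.59 ± 1.14 for FLT3/ITD and 0.31 ± 1.94 for FLT3/ITD with Cxcl12. The wild type groups did not differ beyond these SDs, nor did the FLT3/ITD groups, but the SDs include the difference between the sets. Within set 1 and set 2, the array with Cxcl12 differed from its partner by 1.46 and 0.34 in FLT3/ITD cells. In wild type FLT3 cells it differed by -0.19 and 0.13.

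Socs2, which is best known for restraining growth hormone signalling, was probed at chr10:94875066-94875125 (mm9). It read 1.59 and 0.46 on wild type FLT3 arrays of set 1 and set 2, and 1.72 and 1.29 with Cxcl12. On FLT3/ITD arrays it read 1.88 and 0.79, and 2.22 and 1.15 with Cxcl12. The array with Cxcl12 read higher than its partner without in 4 of 4 pairs, while wild type and FLT3/ITD arrays overlapped.

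Socs3, which blocks Janus kinases bound to receptors such as the IL6 receptor chain gp130, was probed at chr11:117827480-117827539 (mm9). Wild type FLT3 arrays read 1.42 and 0.43 in set 1 and set 2, and 1.19 and 0.13 with Cxcl12. FLT3/ITD arrays read 1.99 and -0.19, and 2.22 and 0.32 with Cxcl12. The N51 arrays were the highest of set 1, and the N78 array without Cxcl12 was the lowest of all.

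Socs4, Socs5, Socs6 and Socs7 are less studied; Socs4 and Socs5 are linked to the epidermal growth factor receptor and Socs6 to receptor tyrosine kinases such as Kit. Their probes lie on chromosomes 14, 17, 18 and 11. Socs4 read 0.67 to 0.82 in set 1 and -1.68 to -0.56 in set 2. Socs5 read -0.18 to 0.29 in set 1 and -1.03 to -0.72 in set 2. Socs6 read 0.93 to 1.27 in set 1 and 0.04 to 0.68 in set 2. For these probes every array of set 1 lay above every array of set 2, whatever the group. The same held for the brightest probes of Socs2 and Socs3. The other Socs4 probes did not show this, reading -2.41 to -1.93 in set 1 against -2.39 to -1.79 in set 2, and -2.44 to -2.04 against -2.61 to -1.33. Socs7 read -3.75 to -3.31 in set 1 and -3.46 to -2.13 in set 2, so its sets overlapped.

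**Figure D1:**
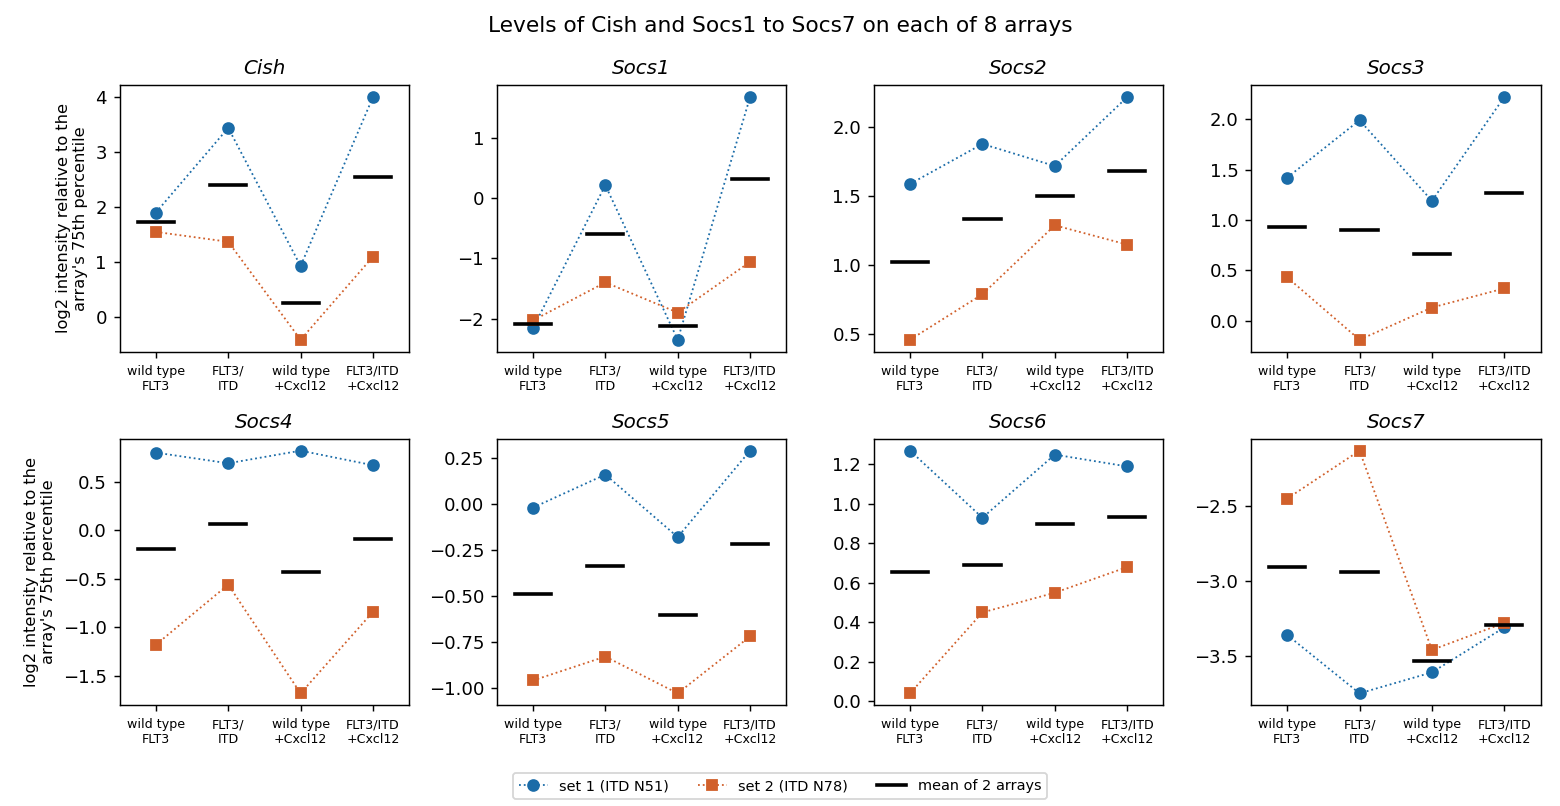
Level on each array (vertical axis, log2 units from its 75th percentile, range set per gene) of each SOCS gene in the 4 groups; points are single arrays, joined by dotted lines within a set, and black bars are means of 2 arrays. Socs1 reads -2.35 to -1.90 on wild type FLT3 arrays and -1.40 to 1.67 on FLT3/ITD arrays. The probes shown for Socs2, Socs3, Socs4, Socs5 and Socs6 separate by set.

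Cish and Socs1 rose in FLT3/ITD cells when cells without and with Cxcl12 were averaged, and the other 6 genes did not pass the test. Socs1 was 3.91-fold higher, a log2 difference of 1.97 (SE 0.46, limma adjusted p = 0.043, 4 arrays per side), with 3.20 in set 1 and 0.73 in set 2. The 4 arrays of a side were 1 without and 1 with Cxcl12 from each set, so the FLT3/ITD side joined N51 and N78. Cish was 2.80-fold higher, a log2 difference of 1.49 (SE 0.35, limma adjusted p = 0.0414), with 2.31 in set 1 and 0.66 in set 2. In set 2 that Cish value averages -0.19 without Cxcl12 and 1.51 with it. There wild type FLT3 read 1.55 without and -0.41 with Cxcl12, and FLT3/ITD 1.37 and 1.10. Neither N78 array thus lay above wild type FLT3 without Cxcl12. The 2 of 8 genes that passed stand beside 6.21% of the 13709 genes tested that passed in either direction, with 3.61% rising and 2.60% falling. Both calls lie close to the threshold of 0.05. With 1 array left out, Cish no longer passed in 6 of 8 cases and Socs1 in 6 of 8, the exceptions being the wild type array without Cxcl12 and the FLT3/ITD array with Cxcl12, both of set 2.

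Both calls also ended with no filter on dim probes (adjusted p = 0.132 for Cish and 0.142 for Socs1), without the intensity trend (0.0798 and 0.0807) and without the set as a block (0.999 and 0.833). Quantile normalization ended the call of Cish (0.0559), and normexp background correction lowered the Socs1 difference to 1.29.

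The remaining differences were 0.30 (SE 0.22) for Socs4, 0.29 (0.23) for Socs3, 0.27 (0.15) for Socs5, 0.24 (0.17) for Socs2, 0.10 (0.29) for Socs7 and 0.04 (0.18) for Socs6. The 95% confidence intervals of the 6 reached from -0.56 to 0.80 at their widest ends. All 8 differences were positive, against 48.9% of all genes tested, although those of Socs4 and Socs7 became negative with normexp and those of Socs6 and Socs7 with some arrays left out. The 8 genes were read on the same arrays, so their signs are not independent. The median of the 8 was 0.28, against -0.01 over all genes tested. Of the 8 genes, Socs1 alone had FLT3/ITD and wild type arrays that did not overlap when both sets were pooled. Within each set, the FLT3/ITD arrays also lay above the wild type arrays for Socs5 (higher in 4 of 4 pairs).

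Among markers of other cells, mast cell and basophil genes moved with the same comparison, in which 3.61% of all genes rose and 2.60% fell. Of 8 tested, 3 passed, with log2 differences of -4.40 for Mcpt8, -3.30 for Mcpt4 and -2.90 for Cma1, and 0 rose. The summed level of all 9, as a multiple of each array's 75th percentile, was 205 to 359 on wild type FLT3 arrays and 45.1 to 135 on FLT3/ITD arrays. Kit was above background on no array. Of monocyte and macrophage markers 1 of 4 rose (Lyz2, by 2.57), the only 1 with a positive difference, and the median of the 4 was -0.21. The summed level of all 6 markers of that list was 18.2 to 48.4 on wild type FLT3 arrays and 7.94 to 46.0 on FLT3/ITD arrays. Of T and NK cell markers 0 of 4 passed, and of pro-B cell markers 2 of 8 fell (Csf2rb2 and Ptprc). Their part in the Cish and Socs1 results was not tested, and in bulk RNA fewer cells of a type cannot be told apart from less RNA per cell.

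Taken without Cxcl12, the ITD difference was 1.50 for Socs1 (SE 0.66, limma adjusted p = 0.402) and 0.68 for Cish (SE 0.49, adjusted p = 0.586). None of the 8 genes passed, against 0.511% of all genes, and 1 had an unadjusted p under 0.05, which was Socs1. Its difference ran from 0.79 to 2.21 with 1 array left out, lowest without wild type replicate 1 and highest without wild type replicate 2. In cells with Cxcl12 it was 2.43 for Socs1 (SE 0.66, adjusted p = 0.115) and 2.29 for Cish (SE 0.49, adjusted p = 0.0737). By set it was 4.02 and 0.84 for Socs1, and 3.08 and 1.51 for Cish. With 1 array left out Socs1 ran from 1.24 to 3.63 and Cish from 1.47 to 3.12, in both cases lowest without FLT3/ITD with Cxcl12 replicate 1 and highest without replicate 2 of that group. Again 0 of 8 passed, against 0.839% of all genes, and these 2 had an unadjusted p under 0.05. Here the number depended on the scaling: 2 of the family, Cish and Socs1, passed after normexp, and Cish alone after scaling to the median or in the authors' tables.

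**Figure D2:**
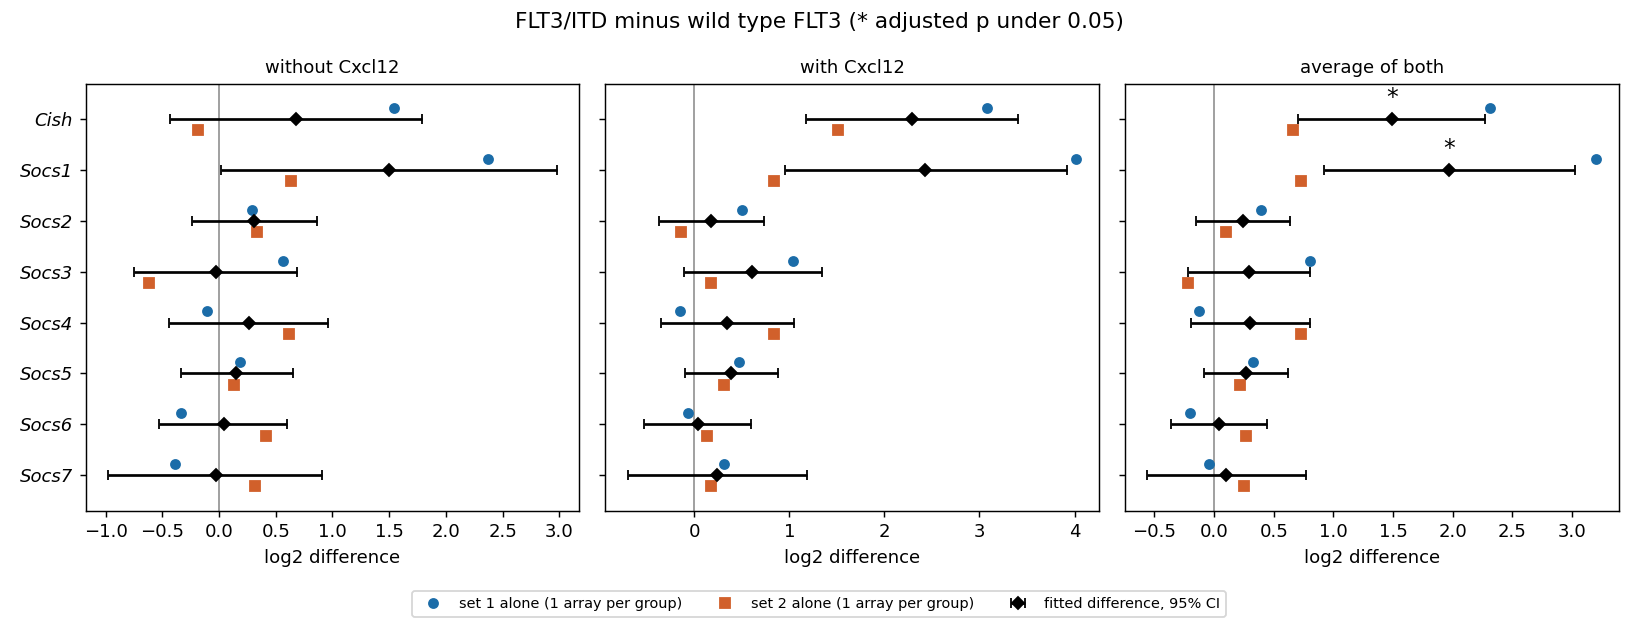
Log2 differences of FLT3/ITD minus wild type FLT3 (horizontal axis, range set per panel) without Cxcl12, with Cxcl12 and averaged; diamonds with bars are fitted differences with 95% confidence intervals, coloured points the differences within a set, and asterisks mark an adjusted p under 0.05. Cish and Socs1 lie further to the right in set 1 than in set 2 in each panel, Cish of set 2 lies at -0.19 without Cxcl12, and both genes pass in the average only.

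The ITD difference was larger in set 1, with N51, than in set 2, with N78, for Socs1. It was 3.20 against 0.73, a difference of -2.46 for set 2 minus set 1 (SE 0.41, limma adjusted p = 0.0474), and 1 of 8 genes passed against 0.416% of all genes. The adjusted p moved widely with the processing, and the difference passed in 10 of 19 alternatives. It was 5.87e-08 with normexp, 6.54e-06 with median scaling, 5.98e-06 in the authors' tables, and 0.000185 to 0.0302 with any of the 4 FLT3/ITD arrays left out. It was 0.0503 with the genes named from the set 2 annotation alone and a probe taken as above background if any of its spots was, 0.0714 with every probe tested, 0.192 with no filter on dim probes, 0.147 with quantile normalization, and 0.147 without the intensity trend. Leaving out any of the 4 wild type arrays gave 0.292 to 0.314. Without FLT3/ITD replicate 1 or 2 of the cells without Cxcl12, Cish passed as well.

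Cish had 2.31 against 0.66, a difference of -1.65 (SE 0.41, adjusted p = 0.145), and Socs3 0.80 against -0.22, a difference of -1.02 (SE 0.28, adjusted p = 0.178). Socs4 went the other way, with -0.13 in set 1 and 0.73 in set 2, a difference of 0.86 (SE 0.31, adjusted p = 0.279). Including Socs1, these 4 genes had an unadjusted p under 0.05. The differences of the other 4 lay between -0.29 (Socs2) and 0.47 (Socs6). With 1 array per group and set, the test used 2 residual degrees of freedom.

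No SOCS gene passed in any comparison of cells with and without Cxcl12. The largest difference was that of Cish in wild type FLT3 cells, 1.90 to 0.93 in set 1 and 1.55 to -0.41 in set 2. It was -1.47 (SE 0.49, limma adjusted p = 0.536, unadjusted p = 0.0151), with a 95% confidence interval of -2.58 to -0.36. With 1 array left out it ran from -2.35 (without wild type replicate 1) to -0.59 (without wild type replicate 2). In FLT3/ITD cells the Cish difference was 0.15 (SE 0.49, adjusted p = 0.96), with 0.56 in set 1 and -0.27 in set 2. The 0 of 8 genes in wild type FLT3 cells stand beside 0.0657% of all genes (0.00729% higher and 0.0584% lower), and those in FLT3/ITD cells beside 0%, since limma called 0 of 13709 genes there, with 1430 at an unadjusted p under 0.05; no other tool was run.

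The difference between the cells, that is Cxcl12 in FLT3/ITD minus Cxcl12 in wild type FLT3, was 1.61 for Cish (SE 0.69, limma adjusted p = 1, unadjusted p = 0.0449). It was 1.53 in set 1 and 1.70 in set 2, and with 1 array left out it ran from 0.73 (without wild type replicate 2) to 2.50 (without wild type replicate 1). No gene on the array passed in limma (0% of 13709, with 236 at an unadjusted p under 0.05), and after normexp 6 did, none of the SOCS family. This comparison shares its arrays with the ITD and Cxcl12 comparisons above. The Cish values of wild type FLT3 cells with Cxcl12 enter it, the ITD differences with Cxcl12 and averaged, and the Cxcl12 difference in wild type FLT3 cells. They do not enter the ITD difference without Cxcl12 or the Cxcl12 difference in FLT3/ITD cells.

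Socs1 differed with Cxcl12 by -0.03 (SE 0.66) in wild type FLT3 cells and 0.90 (SE 0.66) in FLT3/ITD cells, a difference between the cells of 0.93 (SE 0.93). Socs3 differed by -0.27 and 0.37 (SE 0.32 each), and Socs5 by -0.11 and 0.12 (SE 0.22 each). For both, the sign was negative in wild type FLT3 and positive in FLT3/ITD cells in each set. The differences between the cells, 0.64 (SE 0.45) for Socs3 and 0.24 (SE 0.31) for Socs5, did not pass, and that of Socs5 became negative with normexp.

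Averaged over both kinds of cell, Socs2 differed with Cxcl12 by 0.42 (SE 0.17, limma adjusted p = 0.307, unadjusted p = 0.0394), with 0.24 in set 1 and 0.59 in set 2. Cish differed by -0.66 (SE 0.35, adjusted p = 0.417) and Socs7 by -0.49 (SE 0.29, adjusted p = 0.49). The other 5 lay between -0.20 (Socs4) and 0.44 (Socs1). Of the 8 genes 0 passed, against 0.387% of all genes, and their median was 0.03, against 0.01 over all genes.

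**Figure D3:**
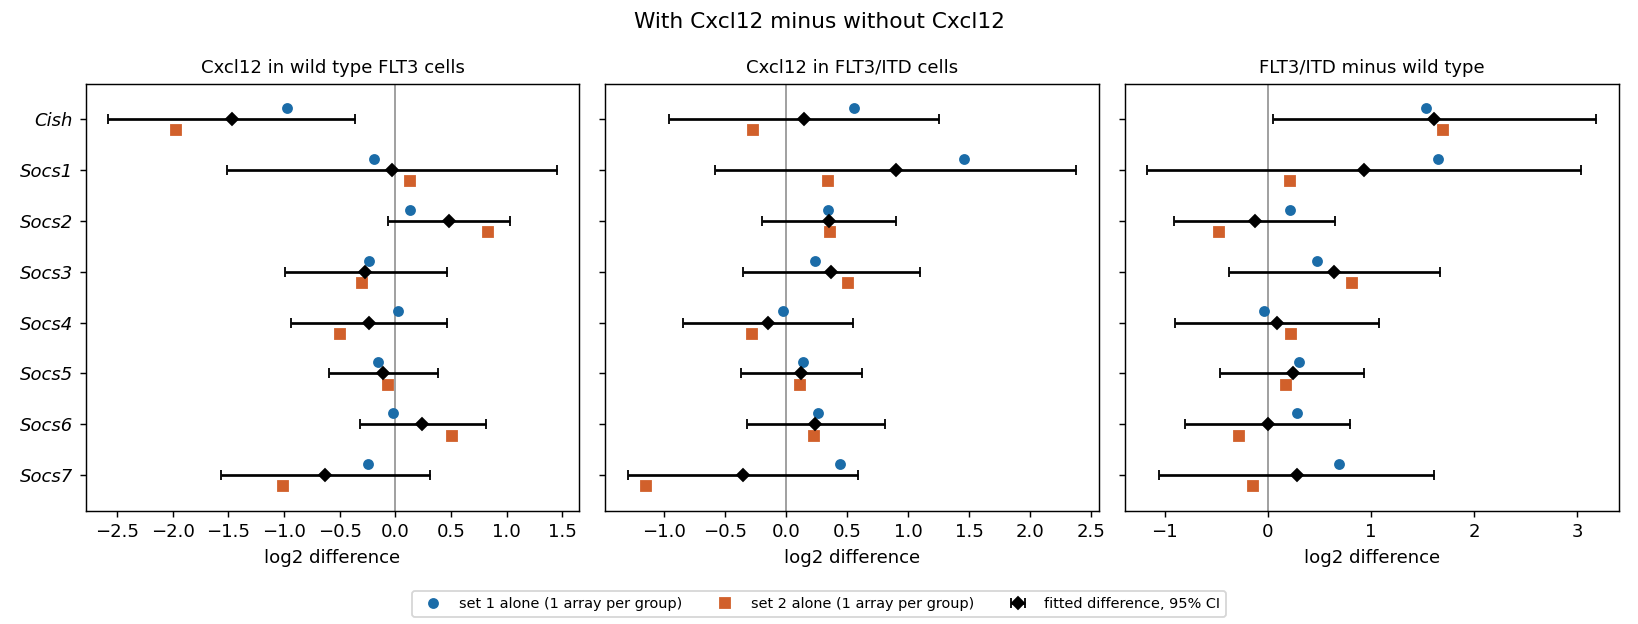
Log2 differences of cells with minus cells without Cxcl12 (horizontal axis, range set per panel) in wild type FLT3 cells, in FLT3/ITD cells, and the second minus the first; diamonds with bars are fitted differences with 95% confidence intervals and coloured points the values within a set. Cish lies at -1.47 in wild type FLT3 cells and at 0.15 in FLT3/ITD cells, and no gene passes.

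Socs2, Socs4 and Socs6 had further probes above background. The second Socs2 probe, which carries another transcript's accession and lies 24319 bases from the first on chromosome 10, differed with Cxcl12 by -0.44 (SE 0.28), against 0.42 for the first. The other Socs4 probes differed with ITD by -0.12 (SE 0.22) and 0.25 (SE 0.28), against 0.30 for the first. The other Socs6 probes that were kept differed with Cxcl12 by 0.44 (SE 0.17) and -0.42 (SE 0.30), against 0.24 for the first. None of these passed, and in the comparison given the probes of each gene did not share 1 direction. In the other comparison the Socs2 probes did, with ITD differences of 0.24 and 0.13. So did the Socs4 probes, with Cxcl12 differences of -0.20, -0.21 and -0.19. The Socs6 probes did not, with ITD differences of 0.04, 0 and -0.37. The remaining Socs6 probe was above background on 0 of 8 arrays.

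**Figure D4:**
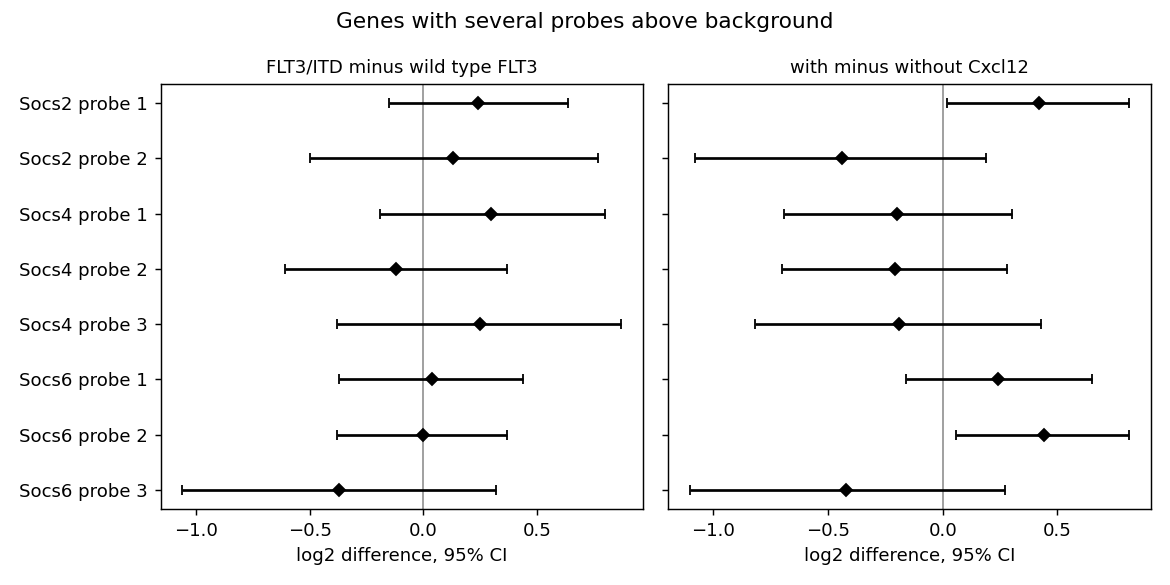
Log2 differences (horizontal axis) with 95% confidence intervals for each probe above background of Socs2, Socs4 and Socs6, FLT3/ITD minus wild type FLT3 on the left and with minus without Cxcl12 on the right. The 2 Socs2 probes lie on opposite sides of 0 for Cxcl12, at 0.42 and -0.44.

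The machinery around the SOCS proteins was read from lists chosen with earlier results known. Over all genes tested, 3.61% rose and 2.60% fell with ITD in the average comparison, and 0.387% passed with Cxcl12. Of 10 partners of the SOCS box ligase, such as Cul5 and the elongins, 0 passed with ITD or with Cxcl12; the largest ITD differences were 0.36 (SE 0.17) for Eloc and 0.25 (SE 0.20) for Nedd8. Of 13 other SOCS box proteins, 1 rose with ITD, Neurl2 by 0.82 (SE 0.18). Of 4 Janus kinases and 6 STATs, 0 passed in either comparison, with -0.26 (SE 0.18) for Jak1, -0.11 (SE 0.15) for Jak2, -0.39 (SE 0.14) for Stat5b and -0.34 (SE 0.15) for Stat3 with ITD. In limma the smallest adjusted p of these 4 was 0.125.

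Of 20 cytokine receptors that signal through Janus kinases, 2 rose with ITD and 2 fell. Beside these counts and those of the next list, 3.61% of all genes rose and 2.60% fell. Il2rg, the common gamma chain, rose by 0.74 (SE 0.18). Ifngr1 fell by 0.93 (SE 0.18) and Csf2rb2, a beta chain of the IL3 receptor, by 0.60 (SE 0.13). Of 17 other negative regulators of cytokine signals 2 rose, Usp18 by 1.55 (SE 0.33) and the adaptor Dok2 by 1.36 (SE 0.16), and 2 fell, Pias1 by 0.62 (SE 0.15) and the phosphatase Ptprc by 0.55 (SE 0.13). None of the genes of either list passed with Cxcl12, against 0.387% of all genes.

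Of 11 STAT5 targets outside the family, 4 rose with ITD and 0 fell, beside 3.61% of all genes rising and 2.60% falling. Their median difference was 0.61, against -0.01 over all genes. Pim1 rose by 2.48 (SE 0.27, 3.11 in set 1 and 1.84 in set 2), Id1 by 2.41 (SE 0.20, 2.79 and 2.03) and Bcl2l1 by 1.70 (SE 0.22, 2.13 and 1.27). These 3 were further from 0 in set 1 than in set 2. The other, Ccnd2, named here after its values were seen, rose by 0.61 (SE 0.14), with 0.57 in set 1 and 0.65 in set 2. In cells without Cxcl12, 0 of the 11 targets passed with ITD, against 0.511% of all genes. In cells with Cxcl12, 3 rose, beside 0.489% of all genes rising. The Id1 difference was 1.20 (SE 0.29, limma adjusted p = 0.148) without Cxcl12 and 3.62 (SE 0.29, adjusted p = 0.00215) with it. That of Pim1 was 2.20 and 2.76 (SE 0.38 each), and that of Bcl2l1 1.59 and 1.81 (SE 0.31 each). In the average comparison of cells with and without Cxcl12, 1 rose, Myc by 1.22 (SE 0.17), beside 0.153% of all genes rising. Of 11 targets of STAT3 and interferons, 0 passed with ITD (median 0.12). With Cxcl12 1 fell, Nfil3 by 1.20 (SE 0.19), beside 0.233% of all genes falling.

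Likeness of pattern was described by Pearson's r over the 8 arrays, each set centred on its mean. Among the family, Cish and Socs1 had r = 0.82, Cish and Socs5 0.86, Socs1 and Socs3 0.81 and Socs1 and Socs5 0.90, and Cish and Socs6 -0.46. Other pairs lay near 0, such as Socs1 and Socs4 (0.01), Socs1 and Socs7 (0.03) and Cish and Socs2 (0.06). All pairs of the family ran from -0.60, for Socs2 and Socs7, to 0.90. Outside it, among 10735 genes above background on all arrays, the genes most like Cish were Ggt1 (0.985), Yeats2 (0.977) and Exoc3l4 (0.971). Those most like Socs1 were Itga2b (0.994), Il34 (0.99) and A530040E14Rik (0.988), and those most like Socs2 were Mtmr4 (0.983), Usb1 (0.982) and Pmel (0.979). For Socs3 they were Zdhhc9 (0.98), Arhgdib (0.973) and Cebpd (0.953). Only Exoc3l4 (0.80, SE 0.20) and Il34 (1.68, SE 0.41) of these 12 passed with ITD in limma, with adjusted p of 0.048 and 0.0481. With 8 arrays that share slides, such values are high for some of many genes and carry no test.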

How the data were processed

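Total RNA of 8 Ba/F3 samples was hybridised to Agilent 4x44K mouse arrays with 1 dye (Cy3). The deposited intensity of each spot had its background subtracted by Agilent Feature Extraction (9.5.1.1 in set 1, 10.7.3.1 in set 2), per the file headers. The authors' normalized tables hold linear intensity with column medians of 100 in set 1 and 0.997 to 1.01 in set 2. After median centring each column was within 0.01 log2 of its array for 99.7 to 99.9% of probes, and the tables served as an alternative.

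Log2 of the processed intensity minus each array's 75th percentile was used, without control spots and with outlier spots (93 to 203 per array) set to missing. A probe counted as above background if at least 50% of its spots were. Probes that were so on both arrays of any group were kept (21126 of 41174), the brightest standing for its gene (13709). Names came from RefSeq accessions (27698 probes), symbols (5644), synonyms (894) or the file alone (1258), and 5680 probes had none. Coordinates of probes are mm9, per the set 2 file headers.

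limma 3.58.1 (R 4.3.3) fitted 4 group means with the set as block and an intensity trend, leaving 3 residual degrees of freedom. The threshold was 0.05 after Benjamini-Hochberg adjustment over all genes. Pairing was by slide, as the file headers record it, and arrays of a set shared deviations from group means (correlations 0.73 to 0.879 over 6 pairs). The fit was tested on simulated data.

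The members and gene lists were chosen with earlier results of these data known. All members were named, and of each list up to 4 genes that passed with the largest difference, or up to 2 where none passed; 1 gene that this rule names is not reported here. The naming of genes and the background rule for probes with several spots were revised after the first fit, to match an earlier processing of the same files; the first form is among the alternatives. Those were background correction, scaling, the probe filter, probes per gene, the trend, the block and each array left out.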

Additional observations from a re-analysis of the deposited data

Results flagged for a closer look

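The ITD difference of Socs1 differed between the sets, with 3.20 in set 1 (N51) and 0.73 in set 2 (N78), a difference of -2.46 (SE 0.41, limma adjusted p = 0.0474 with 2 residual degrees of freedom). The difference passed in 10 of 19 alternatives, with adjusted p from 5.87e-08 to 0.314.

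For Socs4 the ITD difference was negative in set 1 and positive in set 2, both without and with Cxcl12, a difference of 0.86 that did not pass (limma adjusted p = 0.279). For Socs6 it was likewise negative in set 1 and positive in set 2, a difference of 0.47 that did not pass (limma adjusted p = 0.521).

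For Socs3 the Cxcl12 difference was negative in wild type FLT3 cells and positive in FLT3/ITD cells in both sets, a difference of 0.64 that did not pass (limma adjusted p = 1). For Socs5 the same signs were seen, with a difference of 0.24 that did not pass (limma adjusted p = 1).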

How the results depend on the processing

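The 2 genes of the family that passed in the average ITD comparison became 1 with quantile normalization, 0 with no filter on dim probes, 0 without the intensity trend and 0 with no replicate block, and 0 to 2 with 1 array left out. The 0 that passed in the ITD comparison with Cxcl12 became 2 with normexp, 1 with median scaling and 1 in the authors' tables, and 0 to 2 with 1 array left out. The 1 that passed in the comparison of the sets became 0 with quantile normalization, no filter, every probe tested or no trend, 2 with median scaling or the authors' tables, and 0 to 2 with 1 array left out. Naming genes from the set 2 annotation alone together with a probe above background by any spot also gave 0 there (adjusted p = 0.0503); this alternative and its 2 parts alone were added after seeing the data, though they are how the files were first processed, and the parts alone gave 1. In the other 5 comparisons 0 passed under every alternative run. Without the replicate block that pairs arrays of a slide, limma called 0 of all genes in the average ITD comparison, against 852 with it; the comparison of the sets cannot be fitted without the block. Over all genes the average ITD calls ranged from 0 to 1325, with 1325 under median scaling, 366 under normexp, 451 without the trend and 179 without the filter. Median scaling moved the median of all genes in it from -0.01 to 0.12.

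No gene that passed changed direction. Of 1272 values of single genes under the alternatives, 89 changed sign, none past the threshold before or after, and in 79 the difference was under 1 SE; the cause was not tested. With normexp these were 0.01 for Socs3 in the ITD difference without Cxcl12, -0.36 for Socs4 and -0.92 for Socs7 in that with Cxcl12, and -0.07 for Socs4 and -0.49 for Socs7 in the average. They were 0.58 for Socs1, 0.50 for Socs4, 0.27 for Socs5 and 0.65 for Socs7 with Cxcl12 in wild type cells, and on average over both kinds of cell 0.20 for Socs4 and 0.22 for Socs7. They were also 0.32 for Socs2, -0.60 for Socs4, -0.11 for Socs5 and -0.86 for Socs7 between the cells, and 0.14 for Socs2, -0.03 for Socs4 and -0.98 for Socs7 between the sets. Median scaling and the authors' tables both gave 0.21 for Socs3 and 0.20 for Socs7 in the ITD difference without Cxcl12, 0.10 for Socs1 with Cxcl12 in wild type FLT3 cells, and between the cells -0.13 for Socs4. They gave 0.02 and 0.01 for Socs5 with Cxcl12 in wild type FLT3 cells. Quantile normalization gave 0.16 for Socs7 in the ITD difference without Cxcl12, 0.05 for Socs1 with Cxcl12 in wild type FLT3 cells, and between the sets 0.03 for Socs5.

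With 1 array left out, 30 of the values changed sign for at least 1 array, over the following ranges. The ITD difference without Cxcl12 ran from -0.20 to 1.56 for Cish, -0.46 to 0.40 for Socs3, -0.11 to 0.63 for Socs4, -0.30 to 0.37 for Socs6 and -0.66 to 0.59 for Socs7. That with Cxcl12 ran from -0.15 to 0.51 for Socs2, -0.11 to 0.81 for Socs4, -0.11 to 0.18 for Socs6 and -0.19 to 0.68 for Socs7, and the average from -0.13 to 0.20 for Socs6 and -0.21 to 0.42 for Socs7. For Cxcl12 in wild type cells it was -0.96 to 0.90 for Socs1, -0.63 to 0.09 for Socs3, -0.70 to 0.22 for Socs4 and -0.09 to 0.57 for Socs6. In FLT3/ITD cells it was -0.68 to 0.97 for Cish, -0.29 to 2.09 for Socs1, -0.06 to 0.80 for Socs3, -0.52 to 0.22 for Socs4 and -0.98 to 0.27 for Socs7. On average it was -0.16 to 1.03 for Socs1, -0.16 to 0.27 for Socs3, -0.42 to 0.03 for Socs4 and -0.03 to 0.04 for Socs5. Between the cells it was -0.26 to 2.12 for Socs1, -0.46 to 0.20 for Socs2, -0.37 to 0.55 for Socs4 and -0.35 to 0.90 for Socs7, and between the sets -0.64 to 0.05 for Socs2 and -0.50 to 1.08 for Socs7. An array left out leaves its group with 1 array, which is assumed to vary like the others, and 2 arrays per group limit the precision.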
